A study of Homo sapiens with 101 samples.

Results

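The arrays described here ask what the hairpin vector does to SW620 cells before any gene is knocked down. They are the 12 SW620 arrays with a vector that silences no gene, 6 with an empty vector and 6 with a non-target hairpin, and the 3 SW620 arrays of cells that were not transduced, 15 of the 30 control arrays of a series that also holds 71 knockdown arrays. They were chosen by treatment and cell line in the sample titles, and no measured value entered the choice. SW620 is an established colorectal cancer line grown from a lymph node metastasis. All 15 samples are this line, with no targeted gene. The vector is named pLKO in the labels of some vector samples. The rest of the series holds the same controls in SW480, the primary tumour line of the same person, and knockdowns of RAS pathway genes in both lines.

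pLKO is a lentiviral plasmid that integrates into the genome, drives a short hairpin RNA from a polymerase III promoter and carries a puromycin resistance gene. A cell that receives it has been exposed to virus particles and usually to a selection drug, and with the non-target form it also feeds a hairpin into the RNA interference machinery. Non-transduced cells carry no vector, so the contrast holds the vector, the infection and any handling that came with them together, and these cannot be told apart. The drug, the time after transduction and the hairpin sequence are not given in the sources used here.

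Total RNA was hybridised to an Affymetrix array and the values are log2 levels after RMA, a method that corrects background, equalises the arrays and summarises each probe set. Vector and non-transduced cells share a replicate number only in replicate 1 and in replicate 2, with 1 empty vector, 1 non-target and 1 non-transduced array in each. The other 8 vector arrays are replicates 3 to 6, and the last non-transduced array is called replicate 7 in its title but replicate 4 in another label field. The arrays themselves fall into the same sets. The polyadenylated control RNA Dap read 9.55 to 10.22 on the 8 vector arrays of replicates 3 to 6 and 9.83 on the replicate 7 array, against 2.96 to 3.25 on the 6 arrays of replicates 1 and 2. The level of ACTB at its 3' end minus that at its 5' end was 1.5 to 2.35 on the 8 vector arrays and 2.1 on the replicate 7 array, against 0.28 to 0.57 on those 6 arrays. By these measures replicate 7 stands with replicates 3 to 6. All 9 epithelial markers lay above the array median on all 15 arrays and none of them changed. The same held for 4 of 8 fibroblast, 1 of 6 immune and 1 of 5 endothelial markers measured. A score from 50 genes for each line placed the 12 vector arrays at 3.56 to 4.73 and the 3 non-transduced arrays at 3.49 to 4.38, while the SW480 control arrays lay between -4.59 and -3.27. The labels call the replicates biological, but name replicates 3 to 6 as A1, A2, B1 and B2 and do not say whether they were separate cultures, so p-values measure only the spread between these samples, which may be technical.

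Across 19775 genes, 858 rose and 305 fell in vector SW620 cells relative to non-transduced SW620 cells in replicates 1 and 2, 4.34% and 1.54% of the genes tested (limma, Benjamini-Hochberg adjusted p under 0.05, all arrays of the series in the fit). At an unadjusted p under 0.05 there were 4066, 20.6% of genes. Of the called genes, 190 rose and 50 fell at least 2-fold (0.961% and 0.253% of all genes). On the arrays themselves, 729 of the rises (3.69% of all genes) and 282 of the falls (1.43%) had both vector arrays on the same side of the non-transduced array in replicate 1 and again in replicate 2. These numbers lean on a spread estimated mostly from arrays of other groups. With the 6 arrays of replicates 1 and 2 alone, 9 genes rose and 1 fell, and with the arrays of replicates 1 and 2 of all groups in both lines 0 passed, while 869 had an unadjusted p under 0.05. With the 15 SW620 control arrays alone, 2243 rose and 1682 fell. Of 40 named genes called here, 21 kept the call without replicate 1, 16 lost it and 3 changed sign, and among the 20 largest changes those that lost it or changed sign were ALYREF, AURKB, DDIT4, FOXM1, LMNB1 and THBS1. Without replicate 2, PTPRO lost it. ALYREF, AURKB, DDIT4 and FOXM1 also lost it without any 1 of replicates 3 to 6, and THBS1 without replicate 3, 4 or 5. No list had a called member with the arrays of replicates 1 and 2 of all groups, or with replicates 3 to 6 averaged into 1. With the 6 SW620 control arrays alone there was 1 each in the immediate early, endoplasmic reticulum stress and NF-kB lists, and none in the others. The fitted difference takes its non-transduced side from replicates 1 and 2. Its vector side comes from all 12 vector arrays, after offsets between label series that the knockdown arrays help to set. Plain array levels or differences are therefore given beside it for many named genes, though not for all.

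Vector cells were higher in genes that report signalling through the MAPK pathway, the cascade from growth factor receptors through RAS and ERK to transcription. Of 24 measured genes of MAPK output and feedback, 10 rose (41.7%, against 4.34% of all genes), 1 fell and 13 did not pass. Without replicate 1, 11 rose and 1 fell, without replicate 2, 10 rose and none fell, and without 1 of replicates 3 to 6, 5 or 6 rose. Their median difference between vector and non-transduced cells was 0.61 in replicate 1, 0.5 in replicate 2 and 0.47 when the vector arrays of replicates 3 to 6 were set against replicate 7, where the medians of all genes were 0.004, 0.035 and 0.023. In 19 of the 24 both vector arrays lay above the non-transduced array in replicate 1 and in replicate 2, as they did for 20.4% of all genes. In 18 of the 24 the replicate 7 array lay below all 8 vector arrays, as it did for 29.5% of all genes. The mean level over the list was 8.46 and 8.42 on the empty vector arrays of replicates 1 and 2 and 8.49 and 8.28 on the non-target arrays, against 7.75 and 7.64 on the non-transduced arrays. In the later set it was 9.14 to 9.17 with the empty vector and 8.96 to 9 with the non-target hairpin. The replicate 7 array stood at 8.55.

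HBEGF is a secreted ligand of the EGF receptor. It read 8.22 and 7.62 with the empty vector and 7.5 and 7.27 with the non-target hairpin in replicates 1 and 2, against 6.19 and 6.37 in non-transduced cells. On the 8 later vector arrays its lowest, median and highest levels were 7.49, 7.75 and 8.07, against 6.59 on the replicate 7 array. All 12 vector arrays lay above all 3 non-transduced arrays, as they did for 0.764% of genes, while 0.263% had all 12 below all 3. The fitted rise was 1.36 ± 0.203 on the log2 scale (SE), with an adjusted p of 9.1e-06. Set against replicate 7, a single array assumed to vary like the others, it was 1.18 with an adjusted p of 0.0268, a call that was lost with the non-target arm alone (0.95, adjusted p = 0.208). LIF, a cytokine of the interleukin 6 family, rose by 0.89 ± 0.196 (adjusted p = 0.00219), and its array differences were 1.08 in replicate 1, 0.21 in replicate 2 and 0.87 against replicate 7. EREG, another EGF receptor ligand, had array differences of 0.91, 0.42 and 2.28 in that order and did not pass (adjusted p = 0.101).

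Feedback inhibitors moved unequally. DUSP5, a nuclear phosphatase that inactivates ERK, read 7.95 and 10.15 with the empty vector and 8 and 9.5 with the non-target hairpin in replicates 1 and 2, against 5.76 and 6.11 in non-transduced cells. Its 8 later vector arrays read 8.05 to 8.34, against 7.19 on the replicate 7 array. No vector array reached down to any non-transduced array, and the fitted rise was 2.42 ± 0.391 (SE, adjusted p = 3.83e-05). ERRFI1, a cytoplasmic inhibitor of the EGF receptor and not a member of the list, read 11.22 and 12.08 with the empty vector and 11.48 and 11.85 with the non-target hairpin, against 7.74 and 9.48 in non-transduced cells. Its later vector arrays read 10.67 to 10.89, against 9.52 on replicate 7, so the groups did not overlap here either (rise 2.5 ± 0.338 SE, adjusted p = 6.87e-07). DUSP6, the cytoplasmic ERK phosphatase, rose by 1.31 ± 0.386 (SE, adjusted p = 0.028). The Sprouty inhibitors SPRY1, SPRY2 and SPRY4 had fitted differences of 0.12, 0.48 and 0.33 and did not pass, and SPRED3 fell by 0.47 (adjusted p = 0.0257). Among the ETS factors that ERK activates, ETV4 and ETV5 had fitted differences of 0.04 and 0.05.

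EMP1, an epithelial membrane protein, read 6.42 and 8.27 with the empty vector and 6.92 and 7.58 with the non-target hairpin, against 4.51 and 5.36 in non-transduced cells (rise 2.57 ± 0.402 SE, adjusted p = 2.65e-05). Against replicate 7, at 8.35, the 8 vector arrays lay between 8.75 and 9.26. MAFF, a small basic leucine zipper factor induced by growth factors and stress, had the largest fitted rise of all 19775 genes, 2.82 ± 0.349 (SE, adjusted p = 6.42e-08). It read 7.68 and 8.21 with the empty vector and 6.6 and 7.64 with the non-target hairpin, against 4.38 and 5.06 in non-transduced cells. In the later set the gap was smaller, 8.91 to 9.18 on the vector arrays against 8.4 on replicate 7.

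**Figure D1:**
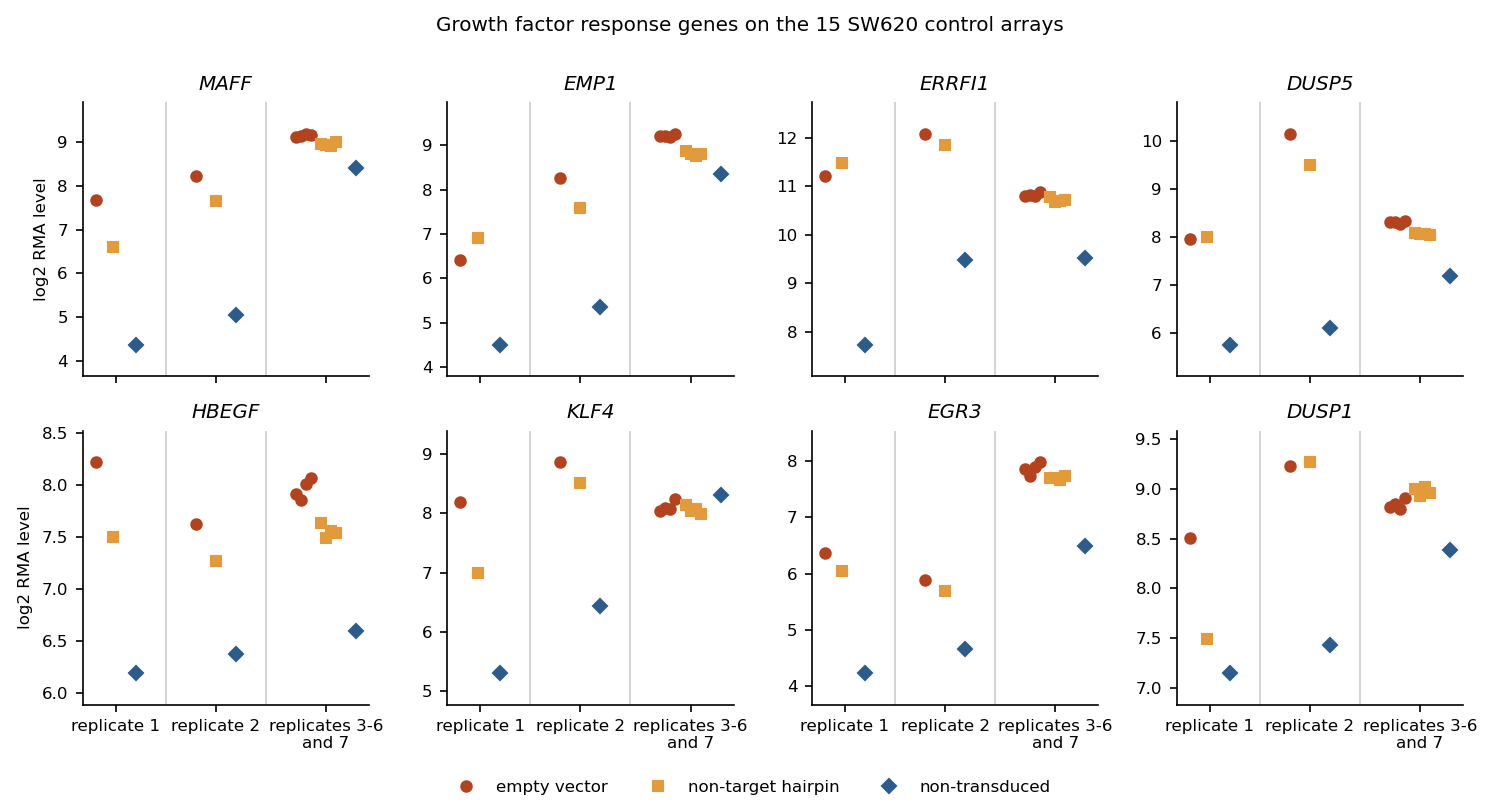
Log2 RMA levels of 8 growth factor response genes on the 15 SW620 control arrays, 1 point per array, by replicate: empty vector (circles), non-target hairpin (squares) and non-transduced (diamonds). Vector points lie above the non-transduced point in replicates 1 and 2 in all 8 panels, and KLF4 is the panel in which the replicate 7 array, at 8.32, is above all 8 vector arrays.

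Immediate early genes, the transcription factors and phosphatases switched on within minutes of a signal, were also higher. Of 21 measured, 13 rose (61.9%, against 4.34% of all genes), none fell and 8 did not pass. Without replicate 1 the rises were 12, without replicate 2 they were 11, and without 1 of replicates 3 to 6 they were 9 or 10. The median difference was 0.42 in replicate 1, 1.11 in replicate 2 and 0.38 against replicate 7, where 17 of the 21 had the replicate 7 array below all 8 vector arrays, as did 29.5% of all genes. KLF4, a zinc finger factor of differentiating epithelium, read 8.19 and 8.87 with the empty vector and 7 and 8.51 with the non-target hairpin, against 5.3 and 6.44 in non-transduced cells (rise 1.91 ± 0.338 SE, adjusted p = 0.000131). Its later vector arrays, at 7.99 to 8.24, did not lie above replicate 7, at 8.32. EGR3, a zinc finger factor of the EGR family, read 6.36 and 5.88 with the empty vector and 6.04 and 5.69 with the non-target hairpin, against 4.24 and 4.67 in non-transduced cells (rise 1.7 ± 0.318 SE, adjusted p = 0.000296). Here the later set went the same way, with 7.66 to 7.98 on the vector arrays against 6.5 on replicate 7. DUSP1, a phosphatase of p38, JNK and ERK, rose by 1.23 ± 0.243 (SE, adjusted p = 0.000625), with array differences of 0.85, 1.82 and 0.53.

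The replicates did not carry the immediate early genes alike. FOS, the partner of JUN in the AP-1 factor, had an array difference of -0.69 in replicate 1, 4.39 in replicate 2 and 0.01 against replicate 7, and its call (1.94 ± 0.483 SE, adjusted p = 0.00852) rests on replicate 2. EGR1 had array differences of -0.07, 2.89 and 0.78 in the same order. JUNB, another AP-1 subunit, was above all 3 non-transduced arrays on all 12 vector arrays, with array differences of 0.8, 1.19 and 0.64 (rise 0.96 ± 0.219 SE, adjusted p = 0.00358).

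Sequences of the region from 250 bases before to 50 after the start of transcription were taken from RefSeq (GRCh38.p14), which holds one for 15384 of the 19775 genes. They are shown for members with small p that hold the letters searched, so that the element usually named for each list can be seen in place. In the immediate early list, DUSP1 holds a cyclic AMP response element, TGACGTCA, and EGR1 holds serum response elements of the CArG type, which are in capitals below. The cyclic AMP element was found on either strand in 2 of 16 promoters of the list, 12.5%, against 2.67% of all promoters. A CArG box was found in 1 of 16, 6.25%, against 1.22%. An AP-1 site, TGANTCA, was found in 0 of the 16 and in 2 of 13 promoters of the MAPK list, 15.4%, against 5.84% of all. A match says only that the letters are there.
DUSP1 promoter, chr5:172771146-172771445, minus strand: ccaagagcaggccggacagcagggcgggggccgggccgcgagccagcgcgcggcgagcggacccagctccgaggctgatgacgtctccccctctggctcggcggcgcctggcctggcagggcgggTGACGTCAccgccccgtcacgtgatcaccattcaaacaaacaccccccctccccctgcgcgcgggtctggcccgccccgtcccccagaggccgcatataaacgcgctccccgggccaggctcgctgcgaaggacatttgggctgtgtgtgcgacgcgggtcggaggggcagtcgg
EGR1 promoter, chr5:138465229-138465528, plus strand: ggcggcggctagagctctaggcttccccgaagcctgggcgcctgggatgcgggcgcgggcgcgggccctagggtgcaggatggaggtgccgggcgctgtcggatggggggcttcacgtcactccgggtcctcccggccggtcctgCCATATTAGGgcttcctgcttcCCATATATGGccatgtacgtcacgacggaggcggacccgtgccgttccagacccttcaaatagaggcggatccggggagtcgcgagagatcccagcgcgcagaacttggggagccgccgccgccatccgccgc

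Genes of mitosis were lower in vector cells. Of 28 measured genes of G2/M and mitosis, none rose, 12 fell (42.9%, against 1.54% of all genes) and 16 did not pass. This count rests on replicate 1: without it 1 rose and none fell, while without replicate 2 all 28 fell, and without any 1 of replicates 3 to 6, 4 fell. In 27 of the 28 both vector arrays lay below the non-transduced array in replicate 1 and in replicate 2, as they did for 16% of all genes. The median difference was -1.9 in replicate 1, -0.48 in replicate 2 and -0.5 against replicate 7, where 26 of the 28 had the replicate 7 array above all 8 vector arrays, as did 23.2% of all genes. In bulk samples such as these a smaller share of dividing cells and less of these RNAs per cell cannot be told apart.

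KIF20A, a kinesin of the mitotic spindle midzone, read 5.32 and 5.49 with the empty vector and 5.93 and 5.38 with the non-target hairpin in replicates 1 and 2, against 8.69 and 6.12 in non-transduced cells. Its later vector arrays read 8.52 to 8.68, against 9.36 on replicate 7. It lay below its own non-transduced array in all 3 sets, and the fitted fall was -1.32 ± 0.304 (SE, adjusted p = 0.00376). CENPF, a kinetochore protein, read 7.19 and 7.13 with the empty vector and 7.35 and 6.97 with the non-target hairpin, against 9.81 and 7.53 in non-transduced cells (fitted difference -1.23 ± 0.295 SE, adjusted p = 0.00585). FOXM1, a transcription factor that drives many mitotic genes and is not a member of the list, read 7.68 and 6.57 with the empty vector and 7.41 and 6.74 with the non-target hairpin, against 10.09 and 7.27 in non-transduced cells (fitted difference -1.4 ± 0.417 SE, adjusted p = 0.0298). AURKB, the kinase of the chromosomal passenger complex, had array differences of -1.86, -1.13 and -0.5 (fitted difference -1.47, adjusted p = 0.0317). PLK1, BIRC5, CCNB1, CDC20 and TPX2 were also among the 12 that fell. Without replicate 1 the fitted differences of KIF20A, CENPF and FOXM1 changed sign, to 0.29, 0.23 and 0.05, and none of these passed.

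Across replicates the non-transduced arrays differed among themselves by more than the fitted change, and so did the vector arrays. The mean level over the mitosis list was 7.27 and 6.72 on the empty vector arrays of replicates 1 and 2 and 7.37 and 6.78 on the non-target arrays, against 9.22 and 7.27 on the non-transduced arrays. The later set read 9.09 to 9.14 on the 8 vector arrays and 9.6 on replicate 7. The 11 SW620 knockdown arrays of replicates 1 and 2, which also carry hairpin vectors and share these non-transduced arrays, divided by replicate. Their list medians against the non-transduced array lay between -1.76 and -0.32 on the 5 arrays of replicate 1, and between 1.3 and 2.03 on the 6 arrays of replicate 2. By this median the replicate 2 controls, vector and non-transduced alike, stood below every knockdown array of that replicate, and the part of this in the result was not tested.

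Replication genes followed the same order. Of 30 measured genes of G1/S and DNA replication, none rose and 3 fell (10%, against 1.54% of all genes): ORC1, a subunit of the origin recognition complex, MCM3, a subunit of the replicative helicase, and TK1, the thymidine kinase of S phase. Without replicate 1, 2 rose and none fell, without replicate 2, 26 fell, and without any 1 of replicates 3 to 6 none did. The median difference was -0.89 in replicate 1, -0.26 in replicate 2 and -0.58 against replicate 7, and on the replicate 7 array all 30 were above all 8 vector arrays, as were 23.2% of all genes. TK1 read 7.83 and 7.04 with the empty vector and 8.13 and 7.38 with the non-target hairpin, against 10.09 and 7.68 in non-transduced cells (fitted difference -1.14 ± 0.371 SE, adjusted p = 0.0481). LMNB1, a nuclear lamin whose loss marks senescent cells, was not a member of either list and fell by 1.5 (SE 0.297, adjusted p = 0.000639). It read 7.96 and 6.82 with the empty vector and 8.51 and 7.58 with the non-target hairpin, against 10 and 8.18 in non-transduced cells, and 9.52 to 9.7 on the later vector arrays against 10.39 on replicate 7.

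Mitotic promoters are known for CCAAT boxes, bound by NF-Y, and for a cell cycle homology region, TTTGAA, bound by the DREAM and B-MYB-MuvB complexes. CCAAT stood on either strand in 18 of 23 promoters of the mitosis list, 78.3%, against 36.1% of all promoters, and TTTGAA in 12 of 23, 52.2%, against 11.9%. Among the promoters of all genes that fell, CCAAT was present in 50.9% and TTTGAA in 16.7%. The promoters of the members with the smallest p that hold either motif follow, with the matches in capitals, where ATTGG is CCAAT read on the other strand. That of KIF20A holds CCAAT boxes only, and that of CENPF holds both.
KIF20A promoter, chr5:138178862-138179161, plus strand: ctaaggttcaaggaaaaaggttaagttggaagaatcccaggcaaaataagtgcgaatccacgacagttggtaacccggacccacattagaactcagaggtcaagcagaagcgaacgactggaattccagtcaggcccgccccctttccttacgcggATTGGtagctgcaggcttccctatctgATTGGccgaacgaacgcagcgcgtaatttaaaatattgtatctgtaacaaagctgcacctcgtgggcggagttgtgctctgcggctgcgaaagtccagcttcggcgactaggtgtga
CENPF promoter, chr1:214602945-214603244, plus strand: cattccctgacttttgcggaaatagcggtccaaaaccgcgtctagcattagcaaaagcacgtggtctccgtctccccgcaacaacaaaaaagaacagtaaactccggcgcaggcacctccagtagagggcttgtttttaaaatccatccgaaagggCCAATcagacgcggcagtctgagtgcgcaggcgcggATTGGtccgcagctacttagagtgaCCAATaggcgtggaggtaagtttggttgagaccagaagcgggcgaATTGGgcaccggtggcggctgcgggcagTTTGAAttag

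**Figure D2:**
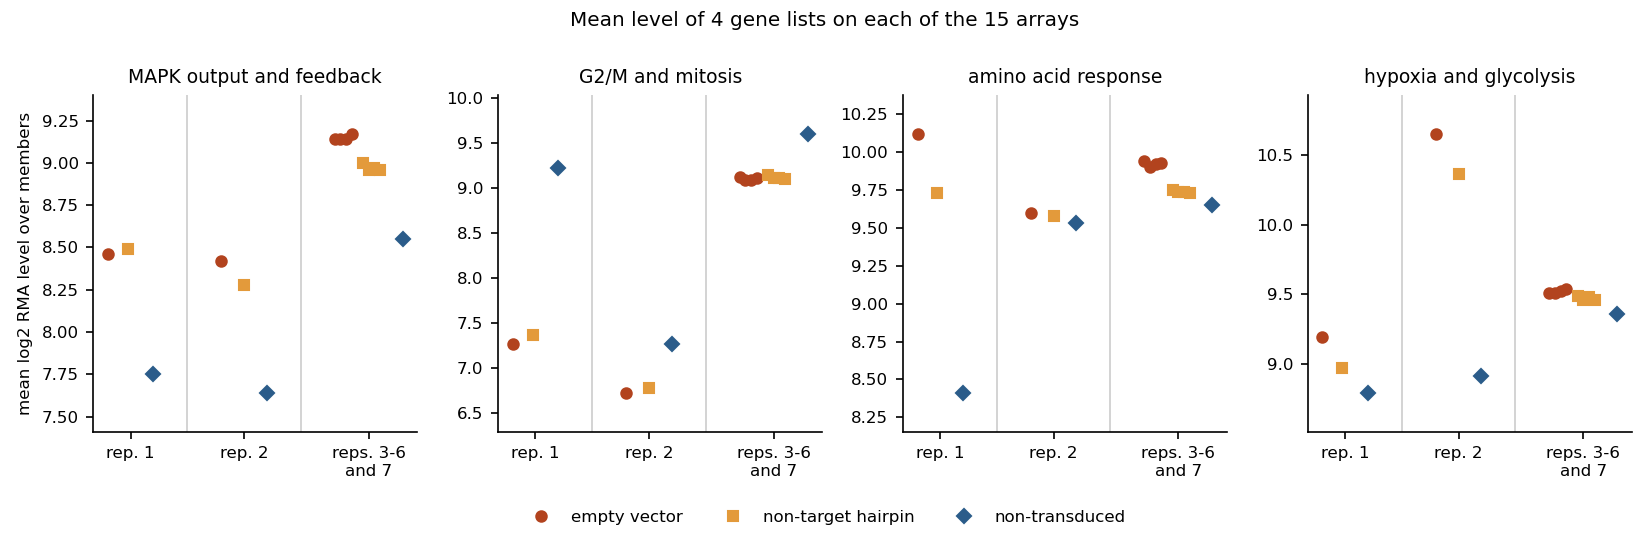
Mean log2 RMA level over the members of 4 gene lists on each of the 15 SW620 control arrays, by replicate: empty vector (circles), non-target hairpin (squares) and non-transduced (diamonds). The MAPK list is higher in vector arrays in all 3 sets, whereas among the 6 arrays of replicates 1 and 2 the non-transduced array of replicate 1 is the highest in mitosis (9.22) and the lowest in amino acid response (8.41), and the vector arrays of replicate 2 stand apart in hypoxia (10.65 and 10.36).

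The response to amino acid shortage rested on replicate 1. This response runs through the kinase GCN2 and the factor ATF4, which raises amino acid transporters, synthetases and biosynthetic enzymes. Of 29 measured members 12 rose (41.4%, against 4.34% of all genes) and none fell. Without replicate 1 none rose and 2 fell, without replicate 2, 26 rose, and without any 1 of replicates 3 to 6, 7 rose. The median difference was 1.45 in replicate 1, but -0.05 in replicate 2 and 0.15 against replicate 7. ASNS, asparagine synthetase, read 11.93 and 10.65 with the empty vector and 11.54 and 10.6 with the non-target hairpin, against 8.48 and 11.23 in non-transduced cells, so that vector cells were higher in replicate 1 and lower in replicate 2 (fitted difference 1.6 ± 0.491 SE, adjusted p = 0.036). The non-transduced array of replicate 1 was the low array: the mean over the list was 9.58 to 10.12 on the vector arrays of replicates 1 and 2, against 8.41 and 9.53 on the non-transduced arrays. On the 6 knockdown arrays of replicate 2 the list median against the non-transduced array lay between -1.24 and -0.79.

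Some stress factors of the list differed in the same direction in both replicates. Their rises too did not pass without replicate 1. DDIT3, the stress factor CHOP, read 8.95 and 9.59 with the empty vector and 8.62 and 9.19 with the non-target hairpin, against 7.81 and 8.59 in non-transduced cells (rise 0.87 ± 0.177 SE, adjusted p = 0.000821). Its later arrays read 8.96 to 9.04 with the empty vector and 8.65 to 8.7 with the non-target hairpin. The replicate 7 array, at 8.86, lay between these ranges. ATF3, a stress-induced repressor, read 9.28 and 8.59 with the empty vector and 7.54 and 8.61 with the non-target hairpin, against 5.63 and 7.19 in non-transduced cells (rise 1.68 ± 0.357 SE, adjusted p = 0.00148). CEBPB, a leucine zipper factor of inflammation and differentiation, rose by 1.6 ± 0.33 (SE, adjusted p = 0.00103), with array differences of 2.57, 0.52 and 0.65. For ATF3 and CEBPB all 12 vector arrays lay above all 3 non-transduced arrays. DDIT4, an inhibitor of mTORC1, read 11.88 and 12.37 with the empty vector and 11.15 and 12.08 with the non-target hairpin, against 8.52 and 10.74 in non-transduced cells, and 11.46 to 11.97 on the later vector arrays against 10.42 on replicate 7 (rise 2.26 ± 0.616 SE, adjusted p = 0.017).

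The element that ATF4 and C/EBP factors bind together, TGATGNAA on either strand, was present in 8 of 26 promoters of this list, 30.8%, against 2.62% of all promoters. It is in capitals in those of ATF3 and of SLC7A1, an importer of arginine and lysine.
ATF3 promoter, chr1:212565157-212565456, plus strand: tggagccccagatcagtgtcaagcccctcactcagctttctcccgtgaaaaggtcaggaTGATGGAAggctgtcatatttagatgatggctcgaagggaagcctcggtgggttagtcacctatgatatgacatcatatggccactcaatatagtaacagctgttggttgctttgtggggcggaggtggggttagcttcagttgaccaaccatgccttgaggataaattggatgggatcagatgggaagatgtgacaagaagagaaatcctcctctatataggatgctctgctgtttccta
SLC7A1 promoter, chr13:29595639-29595938, minus strand: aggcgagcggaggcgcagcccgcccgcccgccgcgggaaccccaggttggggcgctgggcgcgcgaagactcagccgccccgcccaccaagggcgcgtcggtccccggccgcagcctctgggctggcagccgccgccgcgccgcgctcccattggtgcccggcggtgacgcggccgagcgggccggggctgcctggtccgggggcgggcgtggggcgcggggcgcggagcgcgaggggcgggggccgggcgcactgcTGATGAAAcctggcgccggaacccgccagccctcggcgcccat

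Of 19 measured sensors and effectors of endoplasmic reticulum stress, 4 rose (21.1%, against 4.34% of all genes) and none fell. ERN1, the sensor IRE1, read 8.8 and 7.98 with the empty vector and 7.96 and 7.95 with the non-target hairpin, against 5.9 and 6.89 in non-transduced cells, and 8.14 to 8.44 on the later vector arrays against 7.61 on replicate 7 (rise 1.57 ± 0.296 SE, adjusted p = 0.000354). XBP1, the factor whose RNA that sensor splices, rose by 1.04 ± 0.272 (SE, adjusted p = 0.0126), and DNAJB9, a chaperone it controls, by 1.51 ± 0.388 (SE, adjusted p = 0.0108). HSPA5, the main chaperone of the compartment, had a fitted difference of 0.19 and did not pass. The list median against replicate 7 was -0.15, and without replicate 2 the counts were 6 rises and 3 falls.

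Hypoxia genes rested on replicate 2. HIF factors raise glucose transporters, glycolytic enzymes and angiogenic signals when oxygen is short. Of 24 measured, 10 rose (41.7%, against 4.34% of all genes) and none fell. Without replicate 1, 10 rose and none fell, without replicate 2, 6 rose and 5 fell, and without 1 of replicates 3 to 6, 6 or 7 rose. The list had a median difference of 1.45 in replicate 2, but 0.07 in replicate 1 and 0.09 against replicate 7. SLC2A3, a glucose transporter, read 8.73 and 11.78 with the empty vector and 7.57 and 11.65 with the non-target hairpin, against 6.33 and 6.45 in non-transduced cells (rise 2.6 ± 0.564 SE, adjusted p = 0.00188). Its later vector arrays read 8.55 to 8.64, against 8.25 on replicate 7. NDRG1, a hypoxia-induced stress protein, read 11.03 and 10.71 on the vector arrays of replicate 2 against 7.59 without vector, while in replicate 1 it read 7.84 and 7.4 against 7.37. P4HA1, a collagen prolyl hydroxylase subunit, was the member with the smallest p, with array differences of 0.76, 1.64 and 0.6 (rise 1.12 ± 0.208 SE, adjusted p = 0.000264). VEGFA, the angiogenic factor, had array differences of 2.62, 1.72 and 0.32 (rise 1.79 ± 0.422 SE, adjusted p = 0.00497). On the 6 knockdown arrays of replicate 2 the list medians against the same non-transduced array lay between -0.01 and 0.25. The core of the HIF binding site, ACGTG on either strand, was present in 10 of 20 promoters of the list, 50%, against 24.1% of all promoters.

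**Figure D3:**
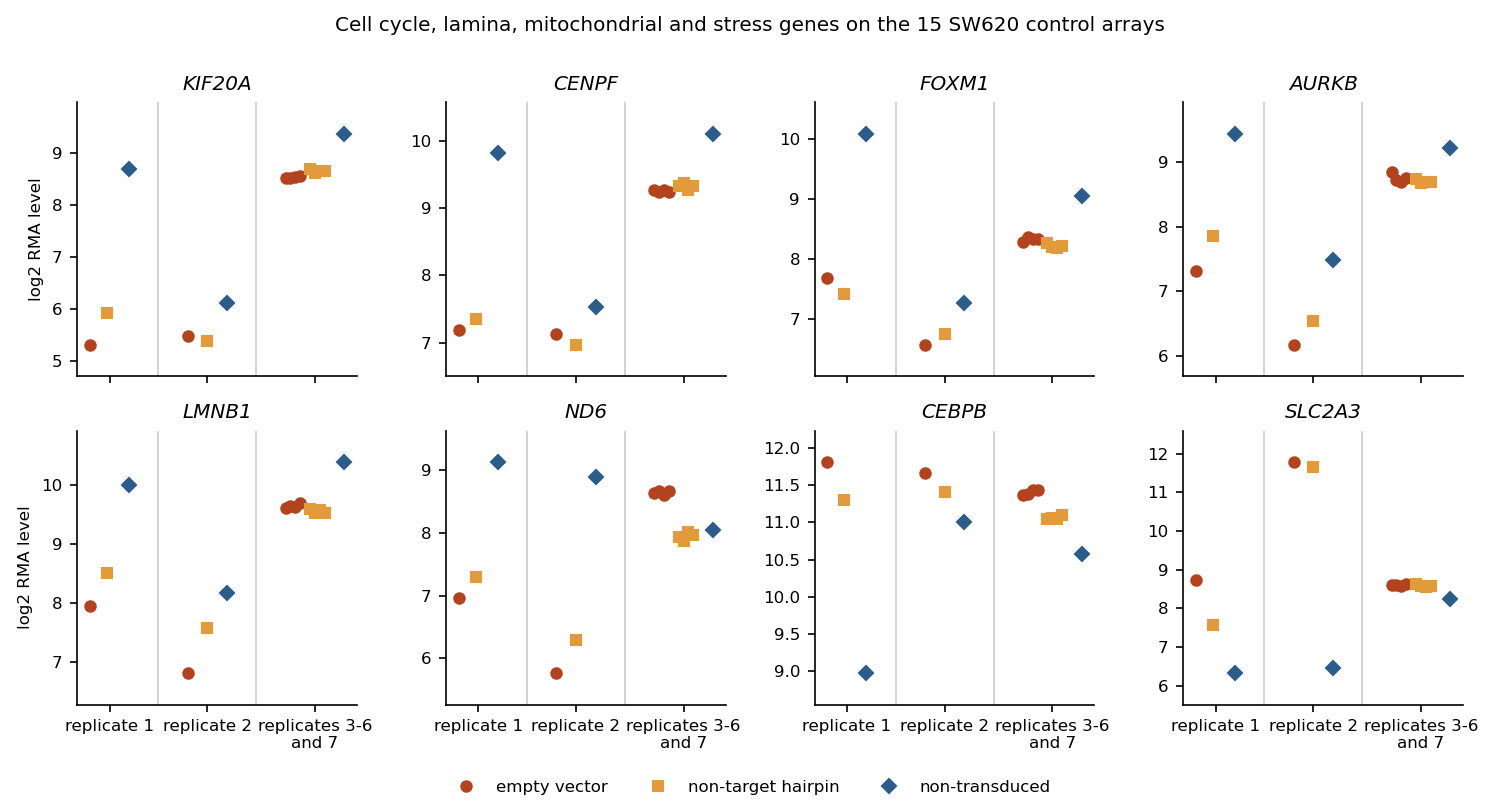
Log2 RMA levels of 8 further genes on the 15 SW620 control arrays, 1 point per array, by replicate: empty vector (circles), non-target hairpin (squares) and non-transduced (diamonds). KIF20A, CENPF, FOXM1, AURKB and LMNB1 lie below the non-transduced array in each set, ND6 lies below it in replicates 1 and 2, and CEBPB and SLC2A3 lie above it with sizes that differ between replicates.

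SW620 has mutant p53, and of 23 measured p53 targets 5 rose (21.7%, against 4.34% of all genes) and none fell (1.54% of all genes). They were TNFRSF10B, SESN2, GDF15, PLK2 and GADD45A, and SESN2 is also a member of the amino acid list. Without replicate 1, 3 rose, and without replicate 2, 6 rose and 3 fell. GDF15, a secreted stress cytokine, read 11.27 and 10.66 with the empty vector and 11.45 and 10.21 with the non-target hairpin, against 8.07 and 9.13 in non-transduced cells (rise 2.03 ± 0.488 SE, adjusted p = 0.00612), while its later vector arrays read 10.51 to 10.62 against 10.36 on replicate 7. CDKN1A, the p53-induced inhibitor of cyclin-dependent kinases, had a fitted difference of 0.63 and did not pass (adjusted p = 0.13), and MDM2 had one of -0.11. Of 23 measured apoptosis genes 5 rose (21.7%, against 4.34% of all genes) and none fell, but without replicate 1 the counts were 2 rises and 1 fall, and without replicate 2 they were 8 and 1. Without any 1 of replicates 3 to 6, 2 rose. TNFRSF10B, the death receptor of TRAIL and a member of both lists, rose by 1.21 ± 0.22 (SE, adjusted p = 0.000182), with array differences of 1.9, 0.52 and 0.67. MCL1, a survival protein, rose by 0.59 ± 0.147 (SE, adjusted p = 0.00865), and XIAP, a caspase inhibitor, by 0.66 ± 0.19 (SE, adjusted p = 0.0248). For MCL1 the array differences were 0.43, 0.46 and 0.48, and no vector array overlapped the non-transduced arrays.

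Genes that cells raise against viral nucleic acid showed little. Of 36 measured interferon response genes 3 rose (8.33%, against 4.34% of all genes) and none fell. Without replicate 1, 2 rose, without replicate 2, 6 rose and 1 fell, and without any 1 of replicates 3 to 6 none did. The list median was -0.03 in replicate 1, 0.11 in replicate 2 and -0.13 against replicate 7. ISG20, an exonuclease, rose by 0.92 ± 0.256 (SE, adjusted p = 0.0199), OAS1, which makes the second messenger of RNase L, by 0.81 ± 0.224 (SE, adjusted p = 0.018), and DTX3L, a ubiquitin ligase, by 0.62 ± 0.181 (SE, adjusted p = 0.0258). For OAS1 the array difference was 0.22 in replicate 1, 0.28 in replicate 2 and -0.11 against replicate 7. IFIT1 read 4.66 and 5.06 with the empty vector and 4.81 and 5.19 with the non-target hairpin, against 4.93 and 4.92 in non-transduced cells. ISG15, a ubiquitin-like modifier, read 9.44 and 9.74 with the empty vector and 9.3 and 9.46 with the non-target hairpin, against 9.4 and 9.21. Neither passed (adjusted p = 0.433 and 0.972).

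Of 24 measured nucleic acid sensors and restriction factors, 2 rose (8.33%, against 4.34% of all genes) and 1 fell (4.17%, against 1.54%). Without replicate 3, 5 or 6 none passed, without replicate 4, 1 rose, without replicate 1, 3 rose and 1 fell, and without replicate 2, 1 rose and 2 fell. TLR3, the endosomal receptor of double-stranded RNA, rose by 0.67 ± 0.196 (SE, adjusted p = 0.026). TRIM5, which binds retroviral capsids, rose by 0.78 ± 0.24 (SE, adjusted p = 0.0373), but its array difference was -0.14 in replicate 1, against 1.26 in replicate 2. APOBEC3C, a cytidine deaminase, fell by 0.63 (SE 0.182, adjusted p = 0.025). RIGI, IFIH1 and EIF2AK2, sensors of double-stranded RNA, had fitted differences of 0.35, 0.34 and 0.08 with adjusted p of 0.0786, 0.518 and 0.878. Of 15 measured genes of the RNA interference machinery none passed, and their fitted differences ran between -0.45 for AGO2 and 0.45 for AGO4. DICER1, which cuts hairpins into short duplexes, read 6.93 and 6.95 with the empty vector and 6.96 and 7.03 with the non-target hairpin, against 7.08 and 7.09 in non-transduced cells.

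No member passed in the lists of heat shock, NRF2 and xenobiotic response, cytosolic ribosomal proteins, ribosome biogenesis, oxidative phosphorylation and MHC class I. Some had calls with 1 replicate left out, as in heat shock, where 4 rose without replicate 1 and 7 fell without replicate 2. Of 25 measured NF-kB targets and chemokines, CXCL8 and CCL20 rose (8%, against 4.34% of all genes) and IL1A fell (4%, against 1.54%). Without replicate 2, 6 rose and 2 fell, and without any 1 of replicates 3 to 6, 1 rose and 1 fell. CXCL8, the neutrophil chemokine interleukin 8, read 7.41 and 7.17 with the empty vector and 8.35 and 7.54 with the non-target hairpin, against 5.29 and 5.56 in non-transduced cells (rise 2.15 ± 0.356 SE, adjusted p = 4.99e-05). In the later set it read 7.82 to 8.13 on the vector arrays against 8.18 on replicate 7. Of 22 YAP and TGF-beta targets none rose and 2 fell (9.09%, against 1.54% of all genes), THBS1 and FN1. The list as a whole lay the other way, with 18 of 22 fitted differences positive, a median of 0.46 and array medians of 0.36, 0.31 and 0.06. With the 15 SW620 control arrays 11 rose and none fell. Without replicate 1, 1 rose and none fell, without replicate 2, 3 rose and 2 fell, and without replicate 3, 4 or 5 neither fall passed. Sterol and fatty acid synthesis had 1 fall among 21 (4.76%), LSS, with 1 rise and no fall without replicate 1, 12 falls without replicate 2 and none without any 1 of replicates 3 to 6, and a median of -0.83 in replicate 1, -0.46 in replicate 2 and -0.15 against replicate 7. Wnt targets had 1 fall among 20 (5%), EPHB3, with 2 rises and no fall without replicate 1 and 4 falls without replicate 2. Of 24 epithelial and tight junction genes CLDN2, a claudin, rose (4.17%, against 4.34% of all genes), and of 16 mesenchymal genes LOXL2, a collagen cross-linking enzyme, rose and FN1 fell (6.25% each, against 4.34% and 1.54%). Without any 1 of replicates 3 to 6 the epithelial list had no call, and the mesenchymal list had none without replicate 3, 4 or 6 and 1 rise without replicate 5.

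**Figure D4:**
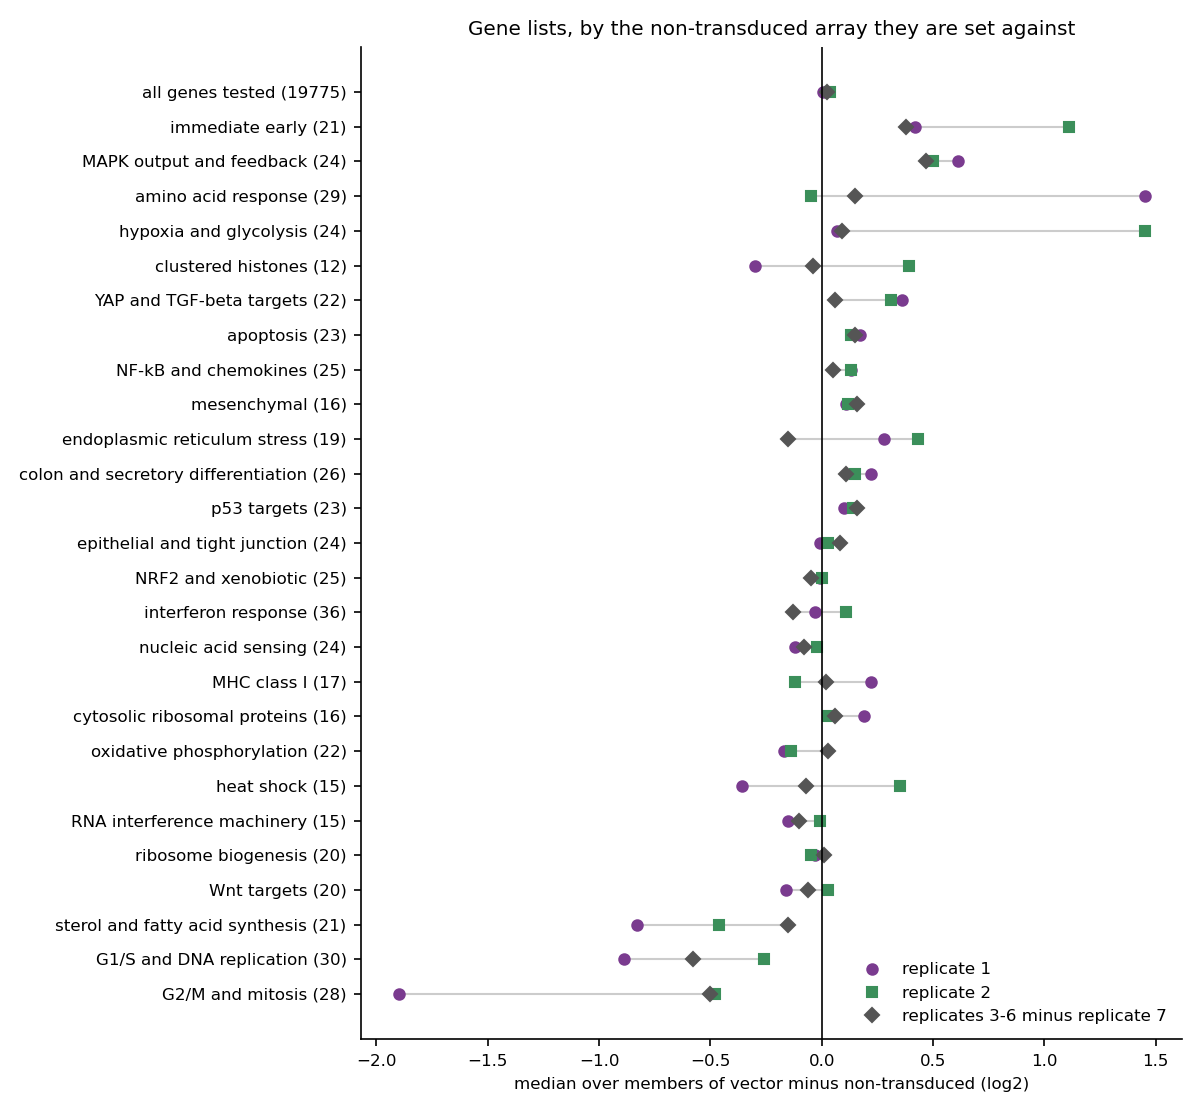
Median over the members of each gene list of vector minus non-transduced (log2), with the number of measured members in brackets, in replicate 1 (circles), in replicate 2 (squares) and for vector replicates 3 to 6 minus replicate 7 (diamonds). MAPK output stays between 0.47 and 0.61 in all 3, while amino acid response and hypoxia each reach 1.45 in 1 replicate only.

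The remaining genes with the largest changes belonged to no single list. TUBB2B, a beta-tubulin, read 8.36 and 8.37 with the empty vector and 7.56 and 8.39 with the non-target hairpin, against 4.39 and 7.23 in non-transduced cells, and 8.7 to 8.95 on the later vector arrays against 7.31 on replicate 7 (rise 2.5 ± 0.476 SE, adjusted p = 0.000417). The groups did not overlap, but only 3 of the 11 knockdown arrays of replicates 1 and 2 lay on the vector side of their non-transduced array. The same tally was 3 of 11 for DDIT4, 4 for CEBPB, ERN1 and XBP1, 5 for ERRFI1, ATF3, LIF and PLAU, 9 for DUSP5, JUNB and MCL1 and 11 for HBEGF, rises whose groups did not overlap either. AKAP12, a scaffold of protein kinase A, read 9.24 and 11.29 with the empty vector and 11.07 and 11.26 with the non-target hairpin, against 7.9 and 8.74, and 11.29 to 11.46 on the later vector arrays against 9.39 on replicate 7 (rise 2.41 ± 0.411 SE, adjusted p = 7.2e-05). IGFBP1, a secreted binder of insulin-like growth factors, rose by 2.46 ± 0.441 (SE, adjusted p = 0.000159), with array differences of 1.92, 2.21 and 1.39. RGCC, a cell cycle regulator, rose by 2.68 ± 0.629 (SE, adjusted p = 0.00479), with array differences of 2.38, 3.38 and 0.12.

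ND6, the mitochondrially encoded subunit of complex I read from the light strand, had the largest fall. It read 6.97 and 5.77 with the empty vector and 7.3 and 6.29 with the non-target hairpin, against 9.13 and 8.9 in non-transduced cells (fitted difference -2.15 ± 0.426 SE, adjusted p = 0.000668). Its later arrays read 8.6 to 8.67 with the empty vector and 7.88 to 8.02 with the non-target hairpin. The replicate 7 array, at 8.05, lay between these ranges. PTPRO, a receptor tyrosine phosphatase, and MYH7B, a myosin heavy chain, fell by 1.49 (SE 0.347, adjusted p = 0.00443) and 1.57 (SE 0.397, adjusted p = 0.00961), and for both the array difference against replicate 7 was positive, 0.42 and 0.11. CBX5, the heterochromatin protein HP1 alpha, had array differences of -1.18, -0.65 and -0.36 (fitted difference -1.39, adjusted p = 0.00863). ALYREF, an mRNA export adaptor, and FTX, a long noncoding RNA, had fitted differences of -1.52 and -1.51, with adjusted p of 0.0442 and 0.00318. Their array differences were smaller, -1.23, -0.38 and -0.7 for ALYREF and -0.45, -1.33 and -1.07 for FTX. THBS1, a matrix glycoprotein, had array differences of -1.34, -0.05 and -2.57. In replicate 2 it read 3.02 with the empty vector and 3.11 with the non-target hairpin, against 3.11 without vector. These levels are near the lowest value measured, 2.59. Its fitted difference was -1.6, against a mean array difference of -0.7 in replicates 1 and 2. The call was lost with the 15 SW620 control arrays alone.

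Replicate 7 was then used as the check, on arrays that the choice of genes did not touch. The 6 arrays of replicates 1 and 2 picked 138 genes that were higher in vector cells by 1 or more on the log2 scale with both vector arrays above the non-transduced array each time. Of these, 118 (85.5%) were also higher in the vector arrays of replicates 3 to 6 than on the replicate 7 array, as were 54.6% of all genes. The same arrays picked 89 lower genes, of which 81 (91%) were lower against replicate 7, as were 45.4% of all genes. The picked genes are not independent of each other, and all are set against the same single array. Many of the 89 are genes of mitosis, such as AURKB, CENPF, KIF20A and PLK1. The replicate 7 array lay beyond all 8 vector arrays in 103 of the 138 (74.6%, against 29.5% of all genes) and in 78 of the 89 (87.6%, against 23.2%). The sizes were smaller, and a choice of genes by their size in replicates 1 and 2 brings this about in part by itself. The median difference was 1.29 in replicates 1 and 2 and 0.39 against replicate 7 for the higher genes, and -1.2 and -0.55 for the lower genes. Across all genes, which are not independent, the difference in replicate 1 correlated with that in replicate 2 at r = 0.284, and the mean of both with that against replicate 7 at r = 0.338. As vector state and label series change together in the last set, they cannot be told apart there.

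**Figure D5:**
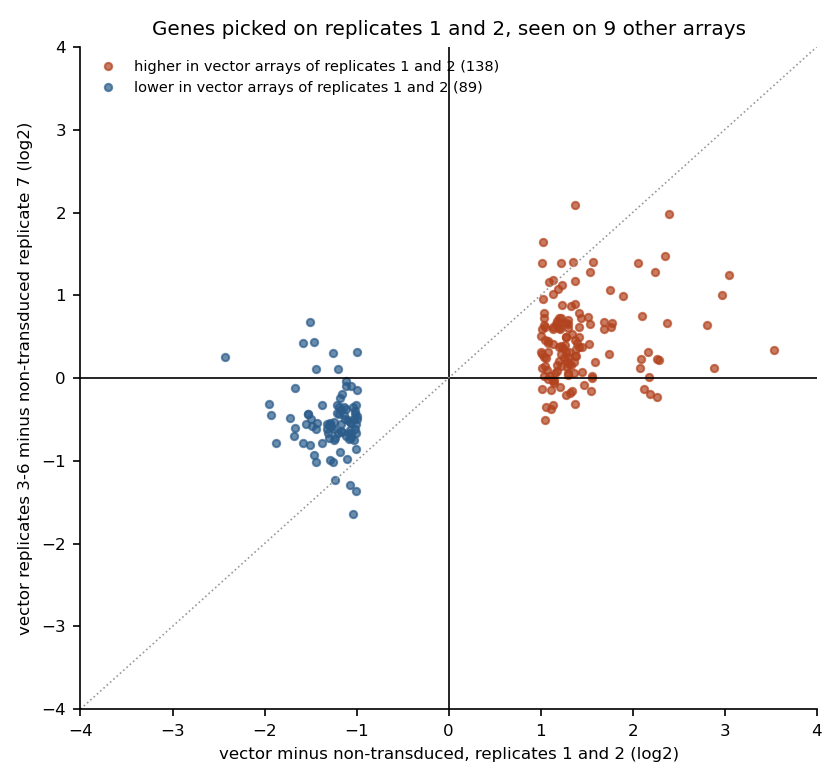
Difference between vector and non-transduced SW620 arrays in replicates 1 and 2 (x axis, log2) and between the vector arrays of replicates 3 to 6 and the replicate 7 array (y axis, log2) for the 138 higher and 89 lower genes picked on replicates 1 and 2. Of these, 118 and 81 keep their sign, and most points lie nearer to 0 than the dotted line of equal size. Picking genes by size on the x axis brings this about in part by itself.

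In the fit, whose non-transduced side is this single array, assumed to vary like the arrays of other groups, 16 genes were higher and 20 lower in vector arrays of replicates 3 to 6 than in replicate 7, 0.0809% and 0.101% of all genes (0.182% together), and 1207 had an unadjusted p under 0.05 (6.1%). Of the 36, 10 were called with the same sign in replicates 1 and 2, 0.0506% of all genes. The fits share the later vector arrays, so this overlap is not independent. Besides HBEGF the 10 held PLAU, the protease urokinase, named here after its values were seen. PLAU read 6.86 and 6.86 with the empty vector and 6.95 and 6.65 with the non-target hairpin, against 5.51 and 6.18 in non-transduced cells, and 7.33 to 7.85 on the later vector arrays against 6.19 on replicate 7 (rise in replicates 1 and 2 of 1.2 ± 0.221 SE, adjusted p = 0.000227, and adjusted p = 0.0167 against replicate 7).

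On some genes the replicate 7 array lay outside the range of all other SW620 control arrays. GASK1B, a Golgi-associated protein, read 3.93 to 4.74 on the 12 vector arrays, against 5.45, 3.6 and 8.65 on the non-transduced arrays of replicates 1, 2 and 7 (fitted difference against replicate 7 of -4.3, adjusted p = 2.57e-09). THBS1 read 3.02 to 5.74 on the vector arrays, against 4.68, 3.11 and 8.01. Such levels were not confined to replicate 7. Across SW620 knockdown arrays GASK1B read 3.01 to 7.57 in replicate 1 and 4.15 to 8.94 in replicate 2. For THBS1 the knockdown arrays read 3.11 to 6.86 and 3.55 to 6.75 in that order, below the 8.01 of replicate 7. Among the others that lay farthest above all other control arrays were ITPR2, a calcium release channel, DSEL and DACH1, and farthest below were A2M, CA11, IGFBP3, TM4SF5 and PEX6. A2M, a protease inhibitor, read 4.52 to 6.06 on the vector arrays, against 4.84, 4.81 and 3.61. IGFBP3, a binder of insulin-like growth factors, read 6.82 to 8.27 on the vector arrays against 6.52, 6.44 and 5.68.

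The rises were tested against those in SW480, where no gene passed in the same contrast by limma and 1157 had an unadjusted p under 0.05 (5.85%). The difference between the lines itself passed for 15 genes, 0.0759% of those tested, 14 with a larger difference in SW620 (0.0708%) and 1 with a smaller (0.00506%), and 2282 had an unadjusted p under 0.05 (11.5%). MAFF changed by 2.82 ± 0.349 in SW620 and by 0.1 ± 0.349 in SW480 (SE), a difference of 2.72 ± 0.494 (adjusted p = 0.00819). DUSP5 changed by 2.42 in SW620 and -0.12 in SW480 (difference 2.54 ± 0.553 SE, adjusted p = 0.0316), and ERN1 by 1.57 and -0.33 (difference 1.9 ± 0.419 SE, adjusted p = 0.0316). TUBB2B and BHLHE40, a transcription repressor of the circadian and hypoxic responses, differed by 3.05 ± 0.673 and 1.76 ± 0.356 (SE, adjusted p = 0.0316 and 0.0237). AFMID, a kynurenine pathway enzyme, went the other way, with -0.88 in SW620 and 0.3 in SW480. With any of replicates 3 to 6 left out of the limma fit, 0 genes passed, while 1592 to 1678 had an unadjusted p under 0.05. The vectors themselves differed for 1 gene in SW620, 0.00506% of those tested, and 477 had an unadjusted p under 0.05 (2.41%): TULP3, a ciliary trafficking protein, was lower with the non-target hairpin than with the empty vector by 1.04 on the log2 scale (difference -1.04, adjusted p = 5.38e-06).

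With only the 6 SW620 control arrays of replicates 1 and 2, each replicate compared within itself, 10 genes passed, named here for that reason. ERRFI1, MAFF, KLF4, CXCL8, DNAJB9, JAG1, IGFBP1, C11orf96 and ZFP36L1 rose and ND6 fell. JAG1, a Notch ligand, rose by 2.1 ± 0.151 (SE, adjusted p = 0.0204), and ZFP36L1, which destabilises AU-rich mRNAs, by 1.44 ± 0.148 (SE, adjusted p = 0.0457). Against replicate 7, ERRFI1, MAFF, JAG1, IGFBP1, C11orf96 and ZFP36L1 were higher in the vector arrays, by 1.25, 0.64, 0.75, 1.39, 1.4 and 0.72 in that order, DNAJB9 differed by 0.01, KLF4 by -0.23 and CXCL8 by -0.19, and ND6 by 0.25.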

How the data were processed

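The values are log2 levels per probe set in the table the authors deposited, made with RMA per the submitters' processing notes, version not stated. They ran between 2.59 and 14.7. Of 54675 probe sets, 41097 carry 1 gene in the platform annotation, 1801 several and 11777 none. Symbols were updated through RefSeq for 41043 and kept for 54. The probe set with the highest mean stood for each of 19775 genes, 10523 of which have more than 1.

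limma 3.58.1 in R 4.3.3 was fitted to all arrays of the series with trended and robust variance, with terms for group and for label series within line (replicate 1, replicate 2, replicates 3 to 6, replicate 7). p-values were adjusted by Benjamini-Hochberg over all genes, with a threshold of 0.05, and "rose" and "fell" refer to it. The vector value is the mean of both vector kinds. In the contrast against replicate 7, the lone array is assumed to vary like the others. An array difference is the mean of the vector arrays minus the non-transduced array. The number of arrays limits the precision.

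Named genes are the 10 largest rises and 10 largest falls on the same side of the non-transduced array in replicates 1 and 2, from each list with at least 1 in 5 members called the 3 of lowest p, up to 5 each way in the difference between lines, and the 5 each way by which replicate 7 stood farthest outside. Other genes were named after their values were seen, except members of the interferon, sensing and RNA interference lists. The 26 lists (618 genes, 563 measured) were chosen with earlier results of these data known. The samples were chosen by their titles and by no measured value, though those earlier results were known.

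The fit was tested on simulated data with 200 changed genes among 19775. The simulated noise was normal and independent between genes and between arrays, with each gene's spread taken from the fit. It held no shift of a treatment within a single replicate, so the shares that follow apply to such data only. In replicates 1 and 2 it recovered 34.3% of changes of 0.5, 83.6% of 1 and 100% of 2 (log2), and 2.03% of its calls were unchanged genes. The share of unchanged genes among the calls on the measured arrays was not tested. The alternatives changed the series term, the arrays, the vector kind, the probe set rule, a filter on dim genes, the normalisation and the variance model, and left out each replicate. Figures were drawn with matplotlib 3.10.9 in Python 3.11.15.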

Additional observations from a re-analysis of the deposited data

Results flagged for a closer look

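Among the 20 genes with the largest changes, 40 groups of 6 vector arrays were examined for an array that stands apart. Of these groups, 17 had one. The array was of replicate 1 or 2 in all 17. Most arrays of each group are later ones, which lay close together, and the genes were picked with a rule on replicates 1 and 2. The count therefore has no reference share to be set against. Replicate 2 stood above the other 5 arrays for RGCC, at 8.85 with the empty vector (next 6.96) and 8.5 with the non-target hairpin (next 7.44). It did so for SLC2A3, at 11.78 with the empty vector and 11.65 with the non-target hairpin, and for DUSP5, at 10.15 and 9.5 in that order. ERRFI1 and DDIT4 were high with the empty vector of replicate 2, at 12.08 and 12.37. FTX was low in replicate 2, at 5.1 with the empty vector and 5.59 with the non-target hairpin. Replicate 1 stood below the others for EMP1 with the empty vector, at 6.42, for TUBB2B with the non-target hairpin, at 7.56, for IGFBP1 at 6.18 with the empty vector and 4.61 with the non-target hairpin, and for AKAP12 at 9.24 and 11.07 in that order. PTPRO was high on the non-target array of replicate 1, at 9.54.

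The difference between SW620 and SW480 passed its own test for 6 named genes: TUBB2B (3.05), MAFF (2.72), DUSP5 (2.54), ERN1 (1.9), BHLHE40 (1.76) and AFMID (-1.18), all as SW620 minus SW480 on the log2 scale.

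Probe sets with no gene name were not used in the comparisons above. Of these 11777, 646 passed in the contrast within replicates 1 and 2 (5.49%), 136 higher and 510 lower in vector cells.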

How the results depend on the processing

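A similar count need not hold the same genes, as the sign changes without replicate 1 at the end of this paragraph show. Within replicates 1 and 2, 8 of 21 alternatives, among them that without replicate 1, left the count of calls within 1.5 times of 1163. The others gave 73 with no term for label series, 3925 with the 15 SW620 control arrays, 743 with SW620 arrays only, 0 with arrays of replicates 1 and 2 only (869 at an unadjusted p under 0.05), 10 with their 6 SW620 control arrays and a replicate block, and 706 with the non-target hairpin alone. Of the alternatives chosen after seeing the data, leaving out 3 arrays of degraded RNA, none of them an SW620 control, gave 1905, and averaging replicates 3 to 6 into 1 gave 3. Leaving out a replicate gave 493 to 3303 (1669 without replicate 1, 3303 without replicate 2, 493 to 518 without 1 of replicates 3 to 6), and without replicate 1 the differences of CENPF (0.23), FOXM1 (0.05) and KIF20A (0.29) turned positive, while without replicate 2 they were -2.61, -2.83 and -2.75.

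Against replicate 7 the 36 became 1842 with the 15 control arrays, 1 with no genes under the 40th percentile, 72 without degraded arrays, 8 with replicates 3 to 6 averaged and 15 to 19 without 1 of replicates 3 to 6. Between lines the 15 became 2 with the replicate block, 2 with no series term, 119 with replicate 7 counted as replicate 4, 0 with replicates 1 and 2 only (279 unadjusted), 5 with the non-target hairpin alone, 8 with the mean of probe sets, 83 with the dim filter, 42 with no trended or robust variance, 192 without degraded arrays, 0 with replicates 3 to 6 averaged (603 unadjusted) and 0 to 809 without 1 replicate. The cause of these moves was not tested.

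Vector and non-transduced groups share only the numbers 1 and 2. Empty vector and non-target arrays of 1 number correlated at 0.887 to 0.967 over 6 numbers but at -0.0508 to 0.0554 within replicates 3 to 6, and the change between replicates 1 and 2 correlated at 0.407 between the vector mean and the non-transduced arrays. With 2 shared numbers and no label that ties them, they were not called pairs, although the series terms already separate replicates 1 and 2. With a replicate block in place of the label series 936 genes were called, and 39 of 40 named genes kept their call.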

Other observations

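Clustered histone genes, whose messages normally lack a poly(A) tail, had 2 rises among 12 measured (16.7%, against 4.34% of all genes). H2AC6 rose by 1.77 ± 0.361 (SE, limma, adjusted p = 0.00092) and H2BC5 by 1.26 ± 0.333 (SE, adjusted p = 0.0136). Without replicate 2, 3, 5 or 6, 1 rose. The list median was -0.3 in replicate 1, 0.39 in replicate 2 and -0.04 against replicate 7. Of 26 measured genes of colon and secretory differentiation, 3 rose (11.5%, against 4.34% of all genes) and none fell, and without any 1 of replicates 3 to 6 only 1 of 26 passed. TFF1, a secreted mucosal peptide, rose by 0.96 ± 0.21 (SE, adjusted p = 0.00192), CEACAM1, a cell adhesion molecule, by 1.2 ± 0.345 (SE, adjusted p = 0.0249), and CEACAM6, its relative, by 0.49 ± 0.159 (SE, adjusted p = 0.049).

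The SW620 knockdown arrays of replicates 1 and 2 share the non-transduced arrays, so their values are given side by side only. Their list medians against the non-transduced array were 0.35 to 0.87 in replicate 1 and 0.16 to 0.51 in replicate 2 for immediate early genes, and -0.07 to 0.73 and -0.15 to 0.47 for MAPK output. For replication genes they were -2.19 to -0.45 in replicate 1 and 1.16 to 1.68 in replicate 2. For the amino acid response they were -0.24 to 1.06 in replicate 1.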
